A study of Mus musculus with 12 samples.

Results

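The genes described here are the 10 genes named Asns, Atf4, Ddit3, Trib3, Chac1, Psat1, Phgdh, Psph, Sesn2 and Ddit4, of 19937 genes that the arrays measured with a probe set naming 1 gene. They were chosen by name, as components of the response of cells to amino acid shortage that runs through the transcription factor ATF4, and each was read from its brightest probe set naming that gene alone. Their messengers were read on Affymetrix arrays that cover whole transcripts, from small intestine of 12 wild-type male mice of the inbred strain FVB, labelled as 8 weeks of age. A control high-fat (HF) diet was fed to 6 mice for 8 weeks, and a diet poor in polyunsaturated relative to saturated fatty acids (the P/S low diet) to 6 others for as long. The design text calls the 6 arrays of a group biological replicates. The series title ties saturated fat in the diet to the excretion of cholesterol through the gut wall. The labels do not give the stretch of small intestine taken, its layers, the hour of dissection or the last meal.

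ATF4 stands at the end of the integrated stress response. Kinases that sense uncharged transfer RNA, unfolded protein, viral RNA or lack of haem phosphorylate the initiation factor eIF2, which slows translation in general but favours translation of the Atf4 messenger. The ATF4 protein, with partners of the C/EBP family, then binds composite sites of both families and raises genes for amino acid synthesis, amino acid transport and the charging of transfer RNA, and under sustained stress genes that hold back growth or favour cell death. In the intestine, where turnover is rapid and amino acids reach the epithelium from the lumen and the blood, the pathway is known from studies of amino acid deprivation and of endoplasmic reticulum stress. Because ATF4 is governed largely at translation, its messenger level is only one part of its activity, and arrays read messengers alone.

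The DNA element bound by ATF4 with a C/EBP partner has the core TGATGNAA, where N is any base. Among the RefSeq promoters of the 10 genes (GRCm38.p6, from 250 bases before to 50 bases after each annotated start, all 10 genes found), this core stood on either strand in 3, those of Asns, Trib3 and Chac1. It stood in 3.97% of all 32851 promoters of that length, and in 2.75% of the 9542 genes tested on the arrays that had a promoter there. The 3 promoters with a match are printed because they carry the element through which the response is thought to act, followed by that of Ddit4, the gene of the 10 that fell, in which the core was not found. Each reads 5′ to 3′ along the gene's strand, with the matching bases in capitals.
Asns, minus strand, chr6:7693160-7693459: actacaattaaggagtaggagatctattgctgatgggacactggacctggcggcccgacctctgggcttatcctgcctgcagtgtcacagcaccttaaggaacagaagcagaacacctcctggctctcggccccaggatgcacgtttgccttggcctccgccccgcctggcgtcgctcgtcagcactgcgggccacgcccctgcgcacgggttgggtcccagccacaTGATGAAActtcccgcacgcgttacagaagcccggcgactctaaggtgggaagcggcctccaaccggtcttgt
Trib3, minus strand, chr2:152344011-152344310: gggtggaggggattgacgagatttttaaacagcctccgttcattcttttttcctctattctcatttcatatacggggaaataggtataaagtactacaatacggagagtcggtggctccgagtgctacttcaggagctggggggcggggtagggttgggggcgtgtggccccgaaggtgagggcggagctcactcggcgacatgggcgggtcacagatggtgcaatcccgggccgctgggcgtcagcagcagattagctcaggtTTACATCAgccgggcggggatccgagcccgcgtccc
Chac1, plus strand, chr2:119350992-119351291: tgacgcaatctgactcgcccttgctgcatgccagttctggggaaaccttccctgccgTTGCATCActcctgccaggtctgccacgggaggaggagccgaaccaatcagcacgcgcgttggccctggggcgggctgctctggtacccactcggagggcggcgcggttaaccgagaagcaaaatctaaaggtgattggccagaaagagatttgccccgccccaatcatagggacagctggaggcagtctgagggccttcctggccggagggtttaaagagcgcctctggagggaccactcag
Ddit4, minus strand, chr10:59951721-59952020: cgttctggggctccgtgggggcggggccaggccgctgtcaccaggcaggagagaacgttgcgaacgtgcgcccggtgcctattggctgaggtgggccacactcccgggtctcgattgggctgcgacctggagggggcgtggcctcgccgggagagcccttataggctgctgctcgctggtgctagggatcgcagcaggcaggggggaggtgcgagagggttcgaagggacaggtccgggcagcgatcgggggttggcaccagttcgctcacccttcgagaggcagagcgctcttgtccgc
The match in Asns, TGATGAAA, began 23 bases before the start. That in Chac1, TTGCATCA, is the core read on the other strand and began 193 bases before the start. That in Trib3, TTACATCA, lay downstream of the annotated start and also reads on the other strand. Positions further from the annotated starts were not searched, and a match is a string of letters and not a measured site.

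Of the 10 genes, 3 rose on the P/S low diet (Asns, Atf4 and Psat1), 1 fell (Ddit4) and 6 did not pass (Phgdh, Ddit3, Chac1, Sesn2, Psph and Trib3). A gene passed when its Benjamini-Hochberg adjusted p from limma, over the 11962 genes bright enough to be tested, was under 0.05, and all 10 genes were bright enough. Of all genes tested, 25.7% passed, 17.8% as higher and 7.87% as lower on the P/S low diet, so 3 and 1 of 10 stand against a background in which many genes passed. Quantile normalization moved that split from 2132 higher and 942 lower to 1773 and 1543, and left the counts for the 10 genes at 3 and 1. P/S low array 3 stood apart for B cell genes, with Cd79a at 193 against 57.9 to 65.8 and Ms4a1 at 168 against 44.6 to 48.4 on the other 5 arrays of its diet, and without it the 10 genes again gave 3 and 1. The median log2 difference (P/S low minus control, as throughout) was 0.10 over the 10 genes and 0.02 over all genes tested. In the values below, an intensity is the deposited linear value of a probe set, a mean of 6 arrays is geometric, and ± is the standard error of the difference on the log2 scale.

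**Figure D1:**
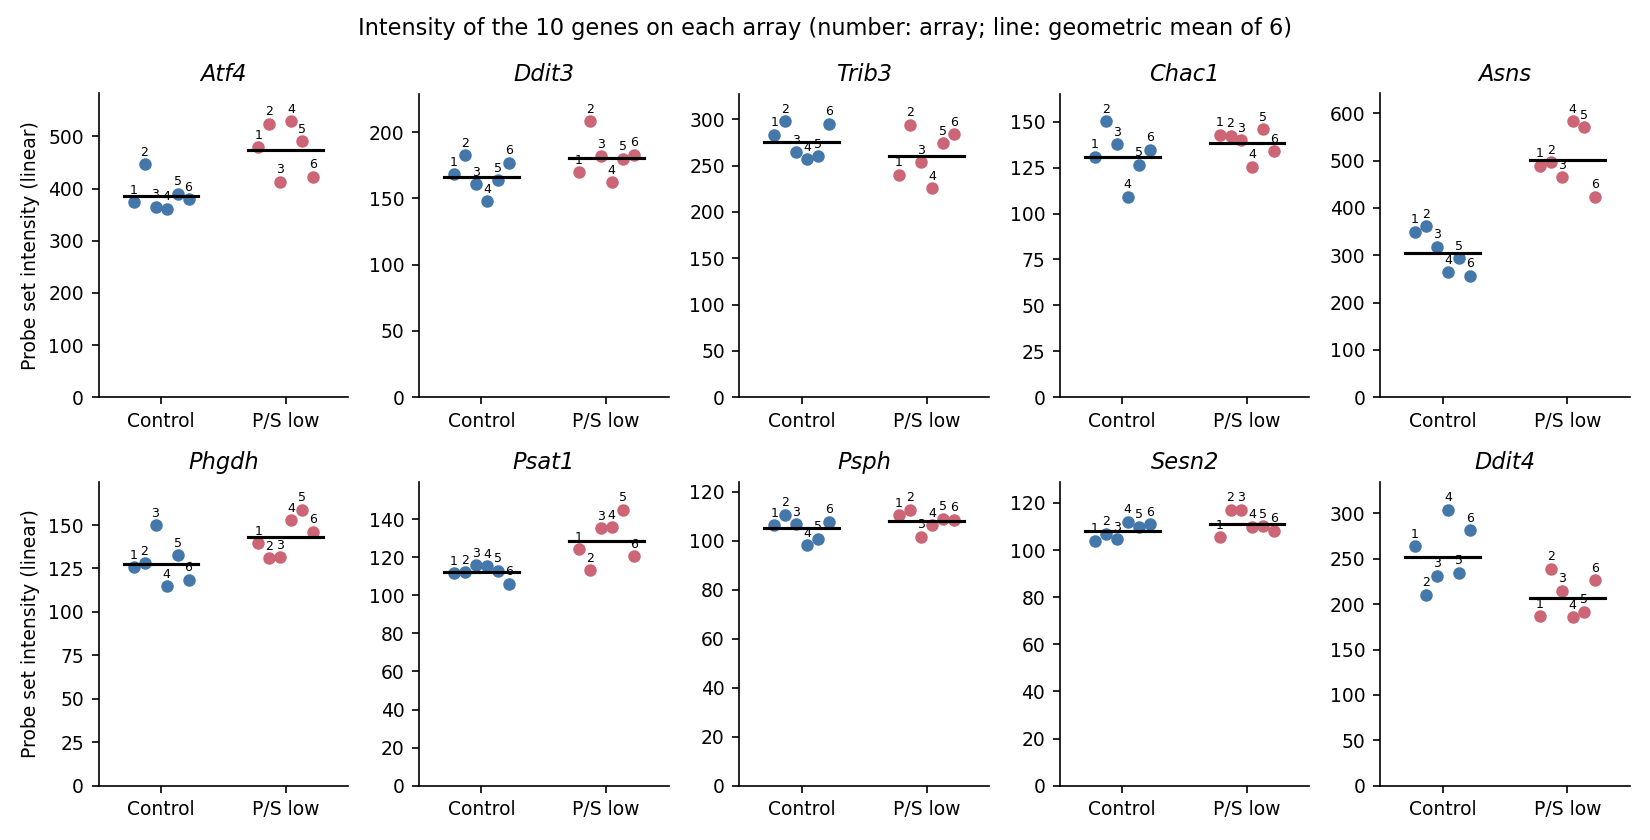
Linear probe set intensity of the 10 genes on the 6 control and 6 P/S low arrays, with each point numbered by its array and a line at the geometric mean of the group. Asns is the gene of the 10 whose groups do not overlap, with control arrays up to 362 and P/S low arrays from 423, while the ranges of Trib3, Chac1 and Psph overlap widely.

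Atf4 itself, the transcription factor of the response, had intensities of 361 at the lowest, 377 at the median and 446 at the highest control array. The corresponding values on the P/S low diet were 413, 485 and 529. The groups overlapped through control array 2, the highest control array by a wide gap, and 4 of 6 P/S low arrays lay above it. Atf4 rose 1.23-fold (0.30 ± 0.07, limma adjusted p = 0.00598), and the 95% interval of the fold ran from 1.11 to 1.37.

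Ddit3 encodes CHOP, a C/EBP family factor that ATF4 induces and that acts with it under prolonged stress. Its intensities were 148, 166 and 183 (lowest, median, highest) in the control group and 162, 181 and 208 in the P/S low group. The ranges overlapped, with 2 P/S low arrays above every control array. Its difference of 0.12 ± 0.06 did not pass (limma adjusted p = 0.196), and the 95% interval of the fold, 0.986 to 1.19, holds small rises as well as no difference.

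Trib3 encodes a pseudokinase that ATF4 and CHOP induce and that binds ATF4 and the kinase AKT. Its intensities ran from 257 through a median of 274 to 298 in the control group. In the P/S low group they ran from 226 through 264 to 294. The highest P/S low array was below the highest control array, and 3 P/S low arrays were below every control array. The difference, -0.08 ± 0.07, did not pass (limma adjusted p = 0.403), with a 95% interval of the fold from 0.856 to 1.04.

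Chac1, an enzyme that breaks down glutathione and a target of the ATF4 and CHOP branch, had control intensities of 109, 133 and 150.3 (lowest, median, highest). Its P/S low intensities were 126, 141 and 146. All P/S low arrays lay inside the range of the control arrays, whose lowest was array 4 and highest array 2. The difference was 0.08 ± 0.07 (limma adjusted p = 0.42), with a 95% interval of the fold from 0.956 to 1.16.

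Among the enzymes of amino acid synthesis, Asns had the largest difference of the 10 genes. Asns encodes asparagine synthetase, which makes asparagine from aspartate and glutamine and is a classical reporter of amino acid shortage. Control intensities were 257 at the lowest, 305 at the median and 362 at the highest, and P/S low intensities were 423, 493 and 583. Every P/S low array was above every control array. Asns was the 1 gene of the 10 without overlap, whereas among all genes tested 10.8% had groups that did not overlap, 6.86% with P/S low higher and 3.9% with P/S low lower. Asns rose 1.65-fold (0.72 ± 0.09, limma adjusted p = 8.77e-05), with a 95% interval of 1.43 to 1.89.

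The other enzymes of the group make serine from the glycolytic intermediate 3-phosphoglycerate, in the order Phgdh, Psat1 and Psph. Phgdh, the dehydrogenase of the first step, had intensities of 115, 127 and 149.8 (lowest, median, highest) on the control and 131, 143 and 159 on the P/S low diet. All 6 P/S low arrays exceeded the control median, but only 2 exceeded control array 3, the highest control array. The difference of 0.16 ± 0.07 did not pass (limma adjusted p = 0.0936). Without control array 3 it was 0.21 and passed (limma adjusted p = 0.0291), and in the other 21 alternatives that tested Phgdh it did not pass. A brighter probe set that names Gm6756 as well as Phgdh, not used here, had a difference of -0.02.

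Psat1, the aminotransferase of the middle step, was steady among control arrays, with intensities of 106 at the lowest, 112 at the median and 116 at the highest. On the P/S low diet the values were 113, 129.8 and 145, and 5 of 6 arrays lay above every control array, the exception being array 2. Psat1 rose 1.15-fold (0.20 ± 0.06, limma adjusted p = 0.0208). Psph, the phosphatase that completes the synthesis, lay between 98.1 and 111 on the control (median 106) and between 102 and 113 on the P/S low diet (median 109). Its groups overlapped nearly fully, and the difference of 0.04 ± 0.05 did not pass (limma adjusted p = 0.536). Psph, Sesn2 and Psat1 were among the dimmer of the tested genes, at the 16th, 17th and 23rd percentile of mean probe set intensity. Arrays can compress differences of dim probe sets, and whether this happened here was not tested.

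Both remaining genes hold back mTORC1, the kinase complex that couples amino acid supply to growth. Sesn2 encodes a leucine-binding protein that restrains mTORC1 through the GATOR complexes, and its intensities were 104, 108 and 112 on the control and 105, 110.0 and 117 on the P/S low diet (lowest, median, highest). The difference of 0.04 ± 0.04 did not pass (limma adjusted p = 0.514). Ddit4 encodes REDD1, which restrains mTORC1 through the TSC complex and is induced by glucocorticoids and hypoxia as well as through ATF4. Its intensities were 211, 249 and 304 on the control and 186, 203 and 239 on the P/S low diet. All 6 P/S low arrays lay under the control median and 3 lay under every control array, the groups overlapping through control arrays 2, 3 and 5 and P/S low arrays 2, 3 and 6. Ddit4 was 1.22-fold lower (-0.29 ± 0.09, limma adjusted p = 0.0255). This call ended without control array 4 or 6 or P/S low array 1, 4 or 5 (adjusted p between 0.0547 and 0.0631), and under an ordinary, unmoderated variance (adjusted p = 0.0721).

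**Figure D2:**
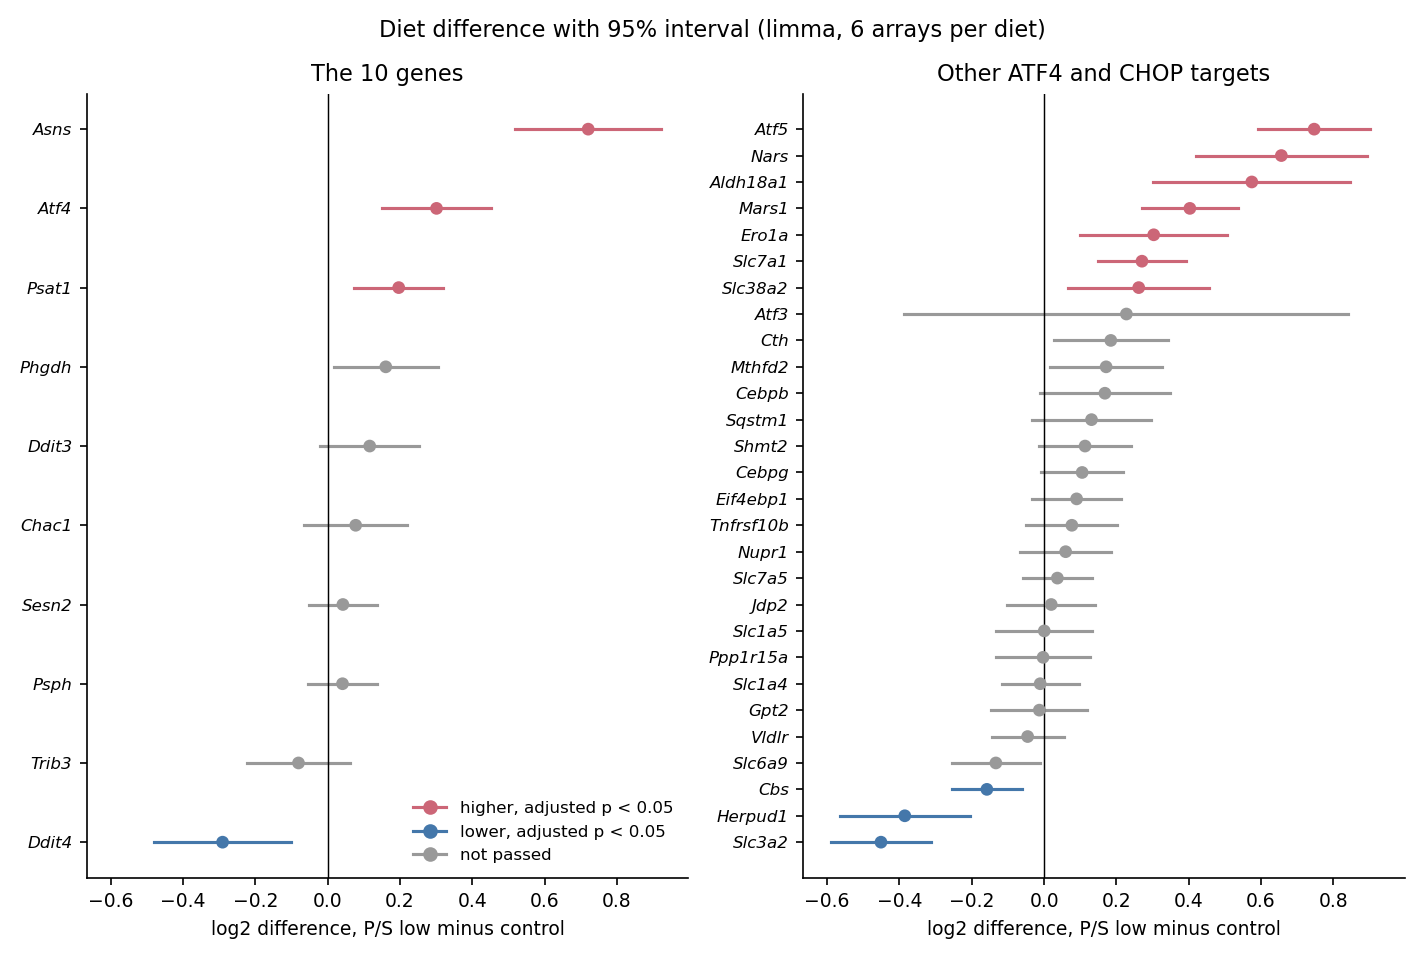
Log2 difference between diets (P/S low minus control) with its 95% interval from limma, for the 10 genes and for 28 tested genes of a list of other ATF4 and CHOP targets, coloured by whether the adjusted p was under 0.05. Asns (0.72) and Atf5 (0.75) lie furthest to the right, and Ddit4 (-0.29), Herpud1 (-0.39) and Slc3a2 (-0.45) lie to the left.

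The 10 genes moved unequally with diet. The difference of each of the other 9 was set against that of Atf4 by an exact two-sided permutation test of the log2 ratio per array over all arrangements of the arrays, a comparison chosen after the values were seen. The difference of Asns exceeded that of Atf4 by 0.42 (exact p = 0.00216, the smallest possible; 0.0146 adjusted over the 9 comparisons). Those of Ddit4, Trib3, Psph, Sesn2 and Chac1 were smaller than that of Atf4, with log2 values relative to it of -0.59, -0.38, -0.26, -0.26 and -0.22 (exact permutation test, adjusted p between 0.0146 and 0.0325). Ddit3 (-0.18, exact permutation, adjusted p = 0.0668), Phgdh (adjusted p = 0.224) and Psat1 (adjusted p = 0.333) did not pass that test. All 9 comparisons use the same Atf4 values.

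Within diets, the 10 genes correlated in both directions, and 10 of their 45 pairs had an unadjusted permutation p of Pearson r under 0.05. The share of all pairs of tested genes under that p was not computed, and the 45 pairs reuse the same 10 genes. That count can therefore not be read as particular to these genes. After subtraction of each diet's mean, 25 of the 45 pairs correlated positively over the 12 arrays, or 55.6%, against 53.3% of all pairs of tested genes. The median r, taken over pairs of both signs, was 0.13 against 0.04. Ddit3 and Trib3 were the pair with the smallest p (Pearson r = 0.887, permutation p = 6e-05, 0.0027 adjusted over 45 pairs; Spearman rho = 0.93, permutation p = 4e-05, adjusted 0.0018). The correlation was 0.916 within the 6 control and 0.886 within the 6 P/S low arrays, and 0.882 without the 2 arrays farthest from the median of Ddit3. It was the one pair of 45 to pass the adjustment. The next pairs were Chac1 with Psph (r = 0.741, rho = 0.748, permutation p = 0.0106 and 0.011, adjusted 0.189 and 0.248), whose r was 0.442 without control arrays 2 and 4, and Ddit3 with Chac1 (r = 0.69, rho = 0.434, permutation p = 0.0139 and 0.186, adjusted 0.189 and 0.441), whose r was 0.664 without 2 arrays. Control array 2 was the highest control array for 6 of the 10 genes (Asns, Atf4, Ddit3, Trib3, Chac1 and Psph), and control array 4 was the lowest for 6 (Atf4, Ddit3, Trib3, Chac1, Phgdh and Psph). P/S low array 4 was the highest of its group for Asns and Atf4 and the lowest for Ddit3, Trib3, Chac1 and Ddit4.

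**Figure D3:**
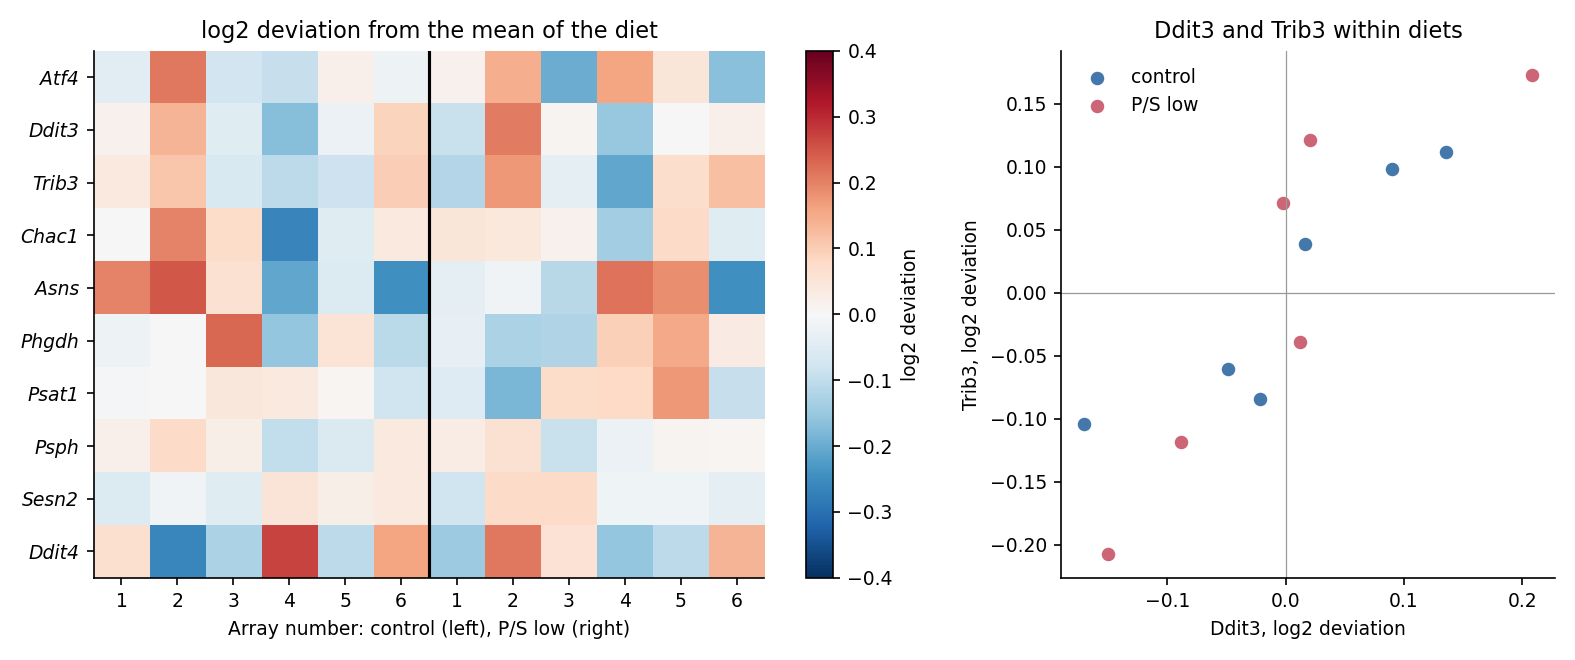
Left, the log2 deviation of each of the 10 genes from its mean in the same diet, with arrays as columns; right, the deviations of Trib3 against those of Ddit3 over the 12 arrays. Ddit3 and Trib3 deviate together in both diets (r = 0.887), and P/S low array 4 is red for Asns and Atf4 and blue for Ddit3 and Trib3.

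Several measures that are not part of the response also differed between the groups. Circadian clock genes were lower in 10 and higher in 2 of 15 tested cases, with Dbp 4.10-fold, Tef 2.01-fold, Cry2 1.45-fold and Nr1d1 1.44-fold lower, and the hours of dissection are not labelled. Some clock genes also ran alike with the array number in both diets: Dbp was highest on array 6 (1108 on the control and 335 on the P/S low diet) and next highest on array 5 (929 and 209), and Arntl was lowest on array 6 (87.7 and 181) and next lowest on array 5. Genes of the response shared this in part: Asns was lowest on array 6 in both diets (257 and 423), as was the tRNA synthetase gene Nars (2213 and 4117). On array 5 of the control and P/S low diets, Asns had 293 and 571, the latter near the highest of its group (583). Nars had 3179 and 4513 there. Atf4 was lowest on control array 4 and P/S low array 3. What the number stands for is not labelled, and with it as a block the same 4 of the 10 genes passed in the same direction. The markers of the labelled tissue were bright: Vil1, Fabp2, Sis and Lct, all enterocyte genes, had control intensities of 5188, 9793, 9063 and 5033. Enterocyte markers were lower in 5 and higher in 2 of 12 cases, with a summed intensity of 64311 to 86503 on control and 58604 to 68496 on P/S low arrays. Crypt and proliferation markers were higher in 3 of 8 tested cases (summed 3843 to 5798 against 4641 to 6378). T cell markers were lower in 4 of 5 (1070.0 to 1319 against 766 to 1066) and macrophage and dendritic cell markers higher in 4 (Csf1r, Cd68, C1qa and C1qb) and lower in 1 (Cd74, 2.28-fold) of 7. The sum of the latter list (3132 to 4869.6 against 2799 to 3918) was carried by Cd74, and without it the ranges were 1818 to 2247 against 2179 to 2843. Goblet markers were higher in 2 of 7 (15390.1 to 22095 against 20759 to 24912) and Paneth markers in 1 of 7 (18565 to 24333 against 20681 to 25169). Over all genes tested, 17.8% were higher and 7.87% lower. No marker of smooth muscle (8 tested), adipose tissue (4) or exocrine pancreas (4 tested, 6 too dim) passed with limma, where 0, 2 and 2 had an unadjusted p under 0.05. Their summed intensities were 7832 to 11492 against 6089.9 to 9203, 839 to 1449 against 832 to 1492, and 739 to 813 against 705 to 811. The part of these differences in those of the 10 genes was not tested, and in whole tissue fewer cells of a type and less transcript per cell cannot be told apart.

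Other genes known to be induced through ATF4 or CHOP also differed in both directions. Of 36 such genes listed, 34 were measured and 28 were bright enough to be tested. Of those 28, 7 rose, 3 fell and 18 did not pass (median 0.10). These are 25% higher and 10.7% lower, against 17.8% and 7.87% of all genes tested. Atf5, a relative of ATF4 that is also translated under stress, rose from an intensity of 193 to 325, or 1.68-fold (0.75 ± 0.07, limma adjusted p = 8.13e-06), with every P/S low array above every control array. Nars, the asparaginyl-tRNA synthetase gene, rose 1.58-fold (0.66 ± 0.11) and the methionyl-tRNA synthetase gene Mars1 1.32-fold (0.40 ± 0.06), both without overlap of the groups. Slc3a2, the heavy chain shared by several amino acid exchangers, was 1.37-fold lower, at 2424 against 3313 (limma adjusted p = 0.000201), with all P/S low arrays below all control arrays. One of its light chain genes, Slc7a5, named after its values were seen, had a difference of 0.04 ± 0.05 that did not pass (limma adjusted p = 0.58). Also named after their values were seen, the amino acid transporter genes Slc7a1 and Slc38a2 rose 1.21-fold and 1.20-fold (limma adjusted p = 0.00291 and 0.0466), Slc7a1 without overlap of the groups. The other tested transporter genes of the list, Slc6a9, Slc1a4 and Slc1a5, did not pass.

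Atf5 apart, the transcription factors named as partners or downstream factors of ATF4 did not pass. Cebpb had a difference of 0.17 ± 0.08 (limma adjusted p = 0.155) and Cebpg, the partner on amino acid response elements, 0.11 ± 0.05 (adjusted p = 0.163). Atf3, an early stress factor, had 0.23 ± 0.29 (adjusted p = 0.594); without P/S low array 4, the highest of its group, its difference was -0.09.

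Most genes of the enzymes that charge transfer RNA rose. Of 18 cytosolic aminoacyl-tRNA synthetases tested, of 20 listed, 14 rose and 4 did not pass, with a median difference of 0.27. In 10 of the 18 the groups did not overlap, with P/S low higher, against 6.86% of all genes tested. The 14 were 77.8% of those tested, against 17.8% of all genes tested. Besides Nars and Mars1, the seryl- and tyrosyl-tRNA synthetase genes Sars and Yars rose 1.28-fold and 1.27-fold. The lists of these enzymes and of ATF4 and CHOP targets share Nars and Mars1.

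Upstream of ATF4, genes of the eIF2 kinases and of the factors that act on eIF2 comprised 17 tested genes. Of these, 7 rose, 1 fell and 9 did not pass (41.2% and 5.88%, against 17.8% and 7.87% of all genes tested, median 0.15). Ppp1r15a is also among the ATF4 and CHOP targets. Eif2ak4, whose product GCN2 is the kinase that senses uncharged transfer RNA, was dim (21st percentile of mean probe set intensity). It rose 1.16-fold, from 107 to 125 (0.22 ± 0.05, limma adjusted p = 0.0041), without overlap of the groups. Eif2ak1, the haem-regulated kinase, was 1.18-fold lower (-0.24 ± 0.06, adjusted p = 0.00647), also without overlap. Eif2ak3, the kinase PERK of the endoplasmic reticulum, and Eif2ak2, which senses double-stranded RNA, did not pass (-0.15 ± 0.10 and 0.09 ± 0.10, limma adjusted p = 0.294 and 0.536). Eif2s2, a subunit of eIF2 itself, rose 1.39-fold and Eif2b1, a subunit of the eIF2B exchange factor, 1.33-fold.

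Serine, glycine and folate metabolism beyond the 3 synthesis enzymes was higher in 5 and lower in 2 of 16 tested genes (median 0.15). These are 31.2% and 12.5%, against 17.8% and 7.87% of all genes tested. The list shares Mthfd2, Shmt2, Aldh1l2, Cth and Cbs with the ATF4 and CHOP targets, so that the call of Cbs is counted in both. The cytosolic folate enzyme gene Mthfd1 rose 1.20-fold and Dld, a subunit of the glycine cleavage system and of other dehydrogenases, 1.23-fold; both calls ended under an ordinary variance (limma adjusted p = 0.0528 and 0.0504). Aldh1l1, which oxidizes formyl-tetrahydrofolate, was 1.30-fold lower, and Cbs, which condenses serine with homocysteine, was 1.12-fold lower. Cbs was dim, at the 13th percentile of mean probe set intensity. Around Chac1, genes of glutathione synthesis and breakdown were split, with 3 higher and 3 lower of 11 (27.3% in each direction). Gclm, the modifier subunit of the rate-limiting enzyme of glutathione synthesis, was 1.40-fold lower (limma adjusted p = 0.000677), as was the brush border aminopeptidase gene Anpep (1.55-fold). Ggct, which encodes a gamma-glutamylcyclotransferase as Chac1 does, and the dipeptidase gene Dpep1 rose 1.26-fold and 1.23-fold, the call of Ggct ending under an ordinary variance (limma adjusted p = 0.0558). Chac2, the relative of Chac1, did not pass (0.17 ± 0.06, limma adjusted p = 0.0565), though it passed under 7 of the alternatives run, with adjusted p between 0.00672 and 0.0476 in those.

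Around Sesn2, Ddit4 and Trib3, genes that feed amino acid and stress signals to mTORC1 were lower in 6 and higher in 1 of 24 tested cases, with 17 not passing (median 0.03). These are 25% lower and 4.17% higher, against 7.87% and 17.8% of all genes tested. The sestrin relatives Sesn1 and Sesn3 were 1.24-fold and 1.17-fold lower, from 1146 to 921 and from 195 to 166, each with all P/S low arrays below all control arrays (limma adjusted p = 0.0018 and 0.0101). Castor2, a relative of the arginine sensor CASTOR1, was 1.54-fold lower, and Fnip1 and Flcn, partners in the folliculin complex at the lysosome, were 1.37-fold and 1.22-fold lower. Ddit4l, Trib1 and Trib2, relatives of Ddit4 and Trib3, did not pass, with differences of -0.07, 0.30 and -0.00154 (limma adjusted p = 0.452, 0.122 and 0.987), Trib1 passed as higher without P/S low array 5 (adjusted p = 0.0496), and the sign of Trib2 turned with median centring and with quantile normalization.

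The other branches of the unfolded protein response were higher in 11 of 26 tested genes (42.3%, against 17.8% of all genes tested), with 15 not passing (median 0.19). The chaperone genes Pdia6, Pdia4 and Hsp90b1 rose 1.48-fold, 1.31-fold and 1.28-fold, and Sdf2l1 rose 1.19-fold. With the replicate number as a block 19 of the 26 rose, where 2454 of all 11962 genes tested rose, against 2132 in the main fit. The B and plasma cell markers, which share Derl3 with these genes, were higher in 2 of 4 tested cases, with a summed intensity of 1503 to 1889 on control and 2159 to 3119 on P/S low arrays (without array 3, up to 2852 and 1 of 4 higher), and their part in this result was not tested. Without P/S low array 3, 13 of the 26 rose, where 2156 of all genes tested rose.

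The other known inducers of Ddit4 and Sesn2 gave mixed lists. Shares higher and lower were 7.14% and 14.3% for the glucocorticoid list, 15.4% and 23.1% for hypoxia and 11.1% and 0% for p53. Over all genes tested the shares were 17.8% and 7.87%. Of 14 genes known as induced by glucocorticoids, 2 were lower and 1 higher: Sgk1 was 1.71-fold lower with no overlap of the groups, Per1, which is also among the clock genes above, 1.22-fold lower and Pdk4 1.52-fold higher. The call of Pdk4 ended without any 1 of control arrays 3 to 6 or P/S low arrays 1 to 4 (limma adjusted p between 0.0573 and 0.105), and that of Per1 ended without any 1 array other than control array 2 or P/S low array 4 (adjusted p between 0.0556 and 0.11). Nfkbia did not pass (0.16 ± 0.07, adjusted p = 0.108) but did without control array 4 (adjusted p = 0.0264). Of 13 genes known as induced by hypoxia, 3 were lower and 2 higher, led by Ndrg1, a stress-responsive gene that was 1.93-fold lower, and Bnip3, a mitochondrial autophagy receptor gene that was 1.34-fold lower. Ldha and Pdk1, of glucose metabolism, rose 1.23-fold and 1.13-fold, the call of Pdk1 ending with quantile normalization (limma adjusted p = 0.0564). Of 9 genes known as induced by p53, 1 rose, Trp53inp1 (1.34-fold), and 8 did not pass, among them Mdm2 (-0.17 ± 0.08, limma adjusted p = 0.132). Mdm2 passed as lower with quantile normalization, with the replicate number as a block and without control array 3 (adjusted p = 0.0174, 0.0475 and 0.0492), Gtse1 passed as higher with quantile normalization and median centring (adjusted p = 0.0301 and 0.0456), and Zmat3 had a difference of -0.11 ± 0.05.

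**Figure D4:**
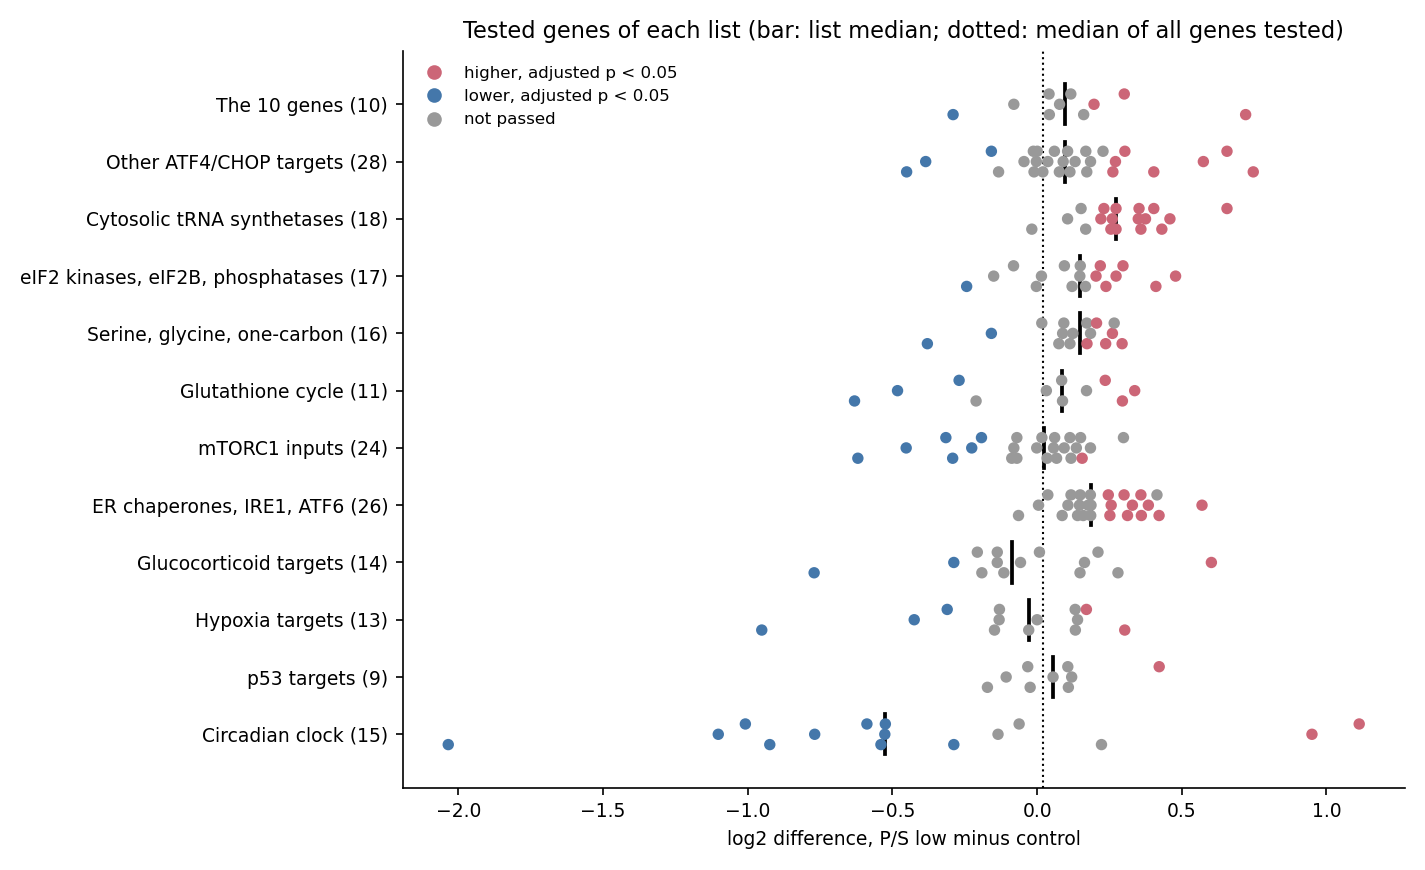
Log2 difference between diets for each tested gene of the 10 and of 11 related lists, coloured by call, with a bar at each list's median and a dotted line at the median of all genes tested (0.02). The points of the cytosolic tRNA synthetases lie to the right of the dotted line except 1, and the circadian clock list, with a median of -0.53, holds the lowest point, Dbp (-2.04).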

How the data were processed

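Small intestine of 12 mice was hybridised to 12 arrays, from 500 ng of total RNA each, made into biotin-labelled sense cDNA with ribosomal RNA left in, per the labels' protocols. The deposited values are linear intensities, 1 per probe set and array. The authors' summarization and normalization are not given in the sources used. Array medians ran from 91.9 to 99.5 and correlations between arrays from 0.976 to 0.994, and precision is limited by there being 12 arrays (median standard error of the log2 difference over genes tested 0.061). Dates and batches are not labelled.

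Of 34760 probe sets, 21640 named 1 gene, 1321 several and 11799 none in the platform annotation; 21553 Entrez identifiers matched RefSeq and 0 symbols were updated. The brightest probe set naming 1 gene was used (954 genes had several), which gave 19937 genes, and near-identical gene copies can share probes. Genes under the 40th percentile of mean log2 value (at 85.6 as a geometric mean intensity) were not tested, which left 11962. Diets were compared on log2 intensity in R 4.3.3 by limma 3.58.1, two-sided, using lmFit and eBayes, with Benjamini-Hochberg adjustment over genes tested and a threshold of 0.05. Correlations used log2 values minus the diet mean and 100000 permutations within diets. Python 3.11.15, NumPy 2.4.6, SciPy 1.17.1, pandas 2.3.3 and matplotlib 3.10.9 were used, and the fit was tested on simulated data. There it recovered 28 of 50 planted log2 changes of 0.25, 48 of 50 of 0.5 and all of 1 or 2. Changes of 0.25 were thus often missed in those simulated data, where 50 of each size were planted among 11962 genes. In the array data 25.7% of genes tested passed, and how often changes of 0.25 were missed there was not tested. The arrays share replicate numbers, whose meaning is not labelled. Deviations of same-numbered arrays over all genes correlated between -0.11 and 0.42, not above 0.1 in every pair, so the numbers were not used as pairs, although some clock genes ran alike with them.

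The 10 genes and the 21 other lists (10 of them cell type markers) were chosen with earlier results of these data known. Named are the 10 genes, up to 4 tested genes of smallest p in each list that is not of markers, and the relatives, eIF2 kinases and partner factors whatever their values, 62 in all. Herpud1, Arntl, Slc7a5, Slc7a1, Slc38a2, Slc6a9 and Slc1a5 were named after their values were seen. Other genes stand for their marker list, for a list overlap or for a promoter match. The alternatives were a 60th percentile filter or no filter, quantile normalization or median centring of arrays, a trended robust prior or an ordinary variance, array weights, a pseudocount of 16, averaged probe sets, the replicate number as a block, and leaving out arrays. Promoters are those of RefSeq on GRCm38.p6, matched by symbol.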

Additional observations from a re-analysis of the deposited data

Results flagged for a closer look

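In 4 of 124 groups of 6 arrays, 2 for each of the 62 named genes, 1 array stood apart by the gap to its nearest neighbour relative to the range, beyond the 95% critical value of Dixon's test; chance gives about 1 in 20. Atf4 was highest on control array 2, at 446.1 against 361 to 390.5 on the other 5. Atf3 and Cebpb were highest of their group on P/S low array 4, Atf3 at 786.3 against 177 to 245 and Cebpb at 395.6 against 255 to 295. The same array was the highest of its group for Asns and Atf4 and the lowest for Ddit3 and Trib3. Trib2 was lowest on control array 5, at 93.76 against 108 to 114.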

How the results depend on the processing

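Over 23 alternatives, Asns (differences of 0.66 to 0.83) and Atf4 (0.23 to 0.34) kept their direction and call, as did Psat1 (0.16 to 0.23) in the 22 where it was tested, with adjusted p up to 0.0497. Single-gene differences of the 62 named genes kept direction and side of the threshold in 1350 cases, lost the call in 36, gained it in 15 and turned sign in 12. All sign changes were of genes that did not pass: Trib2 (0.00528 with array weights, 0.0242 with median centring, 0.0136 with quantile normalization, 0.0187 without control replicates 1 and 2, and -0.0424 to 0.0143 without 1 array) and Atf3 (-0.0941 without P/S low replicate 4). Without 1 array, the 10 genes gave 3 to 4 higher and 0 to 1 lower, and all genes 1610 to 2353 higher and 788 to 1051 lower. The serine and one-carbon list then gave 3 to 6 higher (fewest without control replicate 4 or 6), the mTORC1 inputs 0 to 3 higher, the glucocorticoid list 0 to 1 higher and 1 to 3 lower, and the p53 list 0 to 1 lower. With an ordinary variance, 0 of the 10 genes passed as lower, 2 of the serine list as higher, and 0 and 1 of the glucocorticoid list as higher and lower. Quantile normalization gave 1543 lower over all genes (53.5% of calls higher, against 69.4%), 2 lower in the eIF2 list, 1 lower among endoplasmic reticulum genes, 0 higher glucocorticoid, 1 higher hypoxia, and 2 higher and 1 lower p53 genes. Median centring (76.3% of calls higher) gave 1 lower glucocorticoid and 2 higher p53 genes. No filter gave 0 higher and 1 lower glucocorticoid genes. The 60th percentile filter, which left Chac1, Psat1, Phgdh, Psph and Sesn2 untested, gave 1 lower serine and 6 lower clock genes. A pseudocount of 16 gave 1 lower glucocorticoid gene and the trended robust prior 0 higher. Without control replicates 1 and 2, 9 serine list genes and 3 mTORC1 inputs were higher. With the replicate number as a block, a number whose meaning is not labelled (4 of 12 arrays correlated best with their own number over all genes), 2454 genes were higher and 1076 lower, with 2 higher mTORC1 inputs, 19 higher endoplasmic reticulum genes and 1 lower p53 gene. The cause of these shifts was not tested. Low intensities limit the reading of Psph, Sesn2 and Psat1, and likewise of Cbs and Eif2ak4, at the 13th and 21st percentile of mean probe set intensity.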

Other observations

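The core TGATGNAA stood in 11 promoters of the 10 genes and the listed other targets of ATF4 and CHOP. Of the 9 genes among these that were bright enough to be tested, Asns rose, Herpud1, named after its values were seen, fell (1.31-fold lower), and 7 did not pass: Trib3, Chac1, Atf3, Nupr1, Vldlr, Slc1a4 and Jdp2. Fgf21 and Slc7a11, the others with a match, were too dim to test. Among the other targets with a promoter in the table the core was found in 8 of 26 (30.8%).

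Within diets, Asns and Ddit4 had a correlation of -0.70 that did not pass the adjustment over 45 pairs (permutation p = 0.0239, adjusted 0.189). A probe set naming both Phgdh and Gm6756, left out because it names several genes, averaged 194 (control) and 192 (P/S low) as a geometric mean intensity.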
